A study of Mus musculus with 4 samples.

Results

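The genes described here are 5 GATA transcription factor genes (Gata2, Gata3, Gata4, Gata5 and Gata6), the 2 genes of their FOG cofactors (Zfpm1 and Zfpm2), and 3 homeobox genes known as cardiac partners (Nkx2-5, Nkx2-6 and Isl1). They were read by 11 of the 29922 probes on the array, 2 for Gata4 and 1 for each other gene, and they are 10 of 16637 named genes. The set was chosen by gene family and with the difference between Bmp4 overexpression and control on these same arrays already known, so the members' values are given as a description. How many of them the array-wide fit called is counted beside the share of all probes, and nothing is read from those counts. RNA came from whole embryonic mandibles at E11.5 on the C57BL/6 background, with 1 array per sample. The 2 Bmp4 OE samples carried a conditional Bmp4 overexpression genotype and were induced with doxycycline for 24 hours. The 2 control samples were wild-type, and nothing states whether they were given doxycycline, so drug, genotype and Bmp4 dose cannot be told apart. Neither the tissue that drives the transgene nor any pooling of embryos is given in the sources used here. Separate litters or embryos are not stated for the arrays of a group, so errors and p-values reflect the variation among these samples alone and could be technical.

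GATA factors are zinc finger proteins that bind DNA at sites with the core GATA. Gata2 and Gata3, with Gata1, are best known from blood, ear, nervous system and T cells, and Gata3 also from the distal mandibular arch, while Gata4, Gata5 and Gata6 are best known from heart and endoderm. FOG proteins bind a zinc finger of GATA factors and recruit corepressors, and Nkx2-5 binds Gata4 and activates cardiac genes with it. Bone morphogenetic proteins (BMPs) such as Bmp4 act through SMAD transcription factors, and BMP signals are known to induce several GATA genes and Nkx2-5 in the early heart field.

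The stretch before the start of transcription is shown for the 3 members with the largest differences, Gata3, Isl1 and Gata2, and for Nkx2-5, a member with a small one. Each is the 250 bases before an annotated start in RefSeq, build GRCm38.p6, written 5′ to 3′ on the strand of the gene. Capitals mark matches on either strand to GGCGCC, a palindrome that BMP-activated SMADs bind, and to GATAA, a form of the GATA core.

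Gata3, chr2:9878601-9878850, minus strand: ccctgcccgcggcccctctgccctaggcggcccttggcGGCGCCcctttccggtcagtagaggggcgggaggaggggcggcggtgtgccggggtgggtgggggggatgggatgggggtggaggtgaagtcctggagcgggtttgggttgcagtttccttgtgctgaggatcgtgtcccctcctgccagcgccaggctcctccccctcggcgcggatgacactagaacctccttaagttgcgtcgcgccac
Gata2 first start, chr6:88193641-88193890, plus strand: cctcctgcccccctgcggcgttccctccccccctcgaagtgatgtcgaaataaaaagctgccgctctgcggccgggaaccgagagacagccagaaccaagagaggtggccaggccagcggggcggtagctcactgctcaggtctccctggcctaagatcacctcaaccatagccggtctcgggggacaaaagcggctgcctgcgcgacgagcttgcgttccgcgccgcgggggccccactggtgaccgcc
Gata2 second start, chr6:88198414-88198663, plus strand: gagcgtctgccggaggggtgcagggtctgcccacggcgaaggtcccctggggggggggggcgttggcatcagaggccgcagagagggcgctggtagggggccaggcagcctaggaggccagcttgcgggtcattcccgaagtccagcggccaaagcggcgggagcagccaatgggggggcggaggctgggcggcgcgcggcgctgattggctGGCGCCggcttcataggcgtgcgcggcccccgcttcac
Isl1, chr13:116309689-116309938, minus strand: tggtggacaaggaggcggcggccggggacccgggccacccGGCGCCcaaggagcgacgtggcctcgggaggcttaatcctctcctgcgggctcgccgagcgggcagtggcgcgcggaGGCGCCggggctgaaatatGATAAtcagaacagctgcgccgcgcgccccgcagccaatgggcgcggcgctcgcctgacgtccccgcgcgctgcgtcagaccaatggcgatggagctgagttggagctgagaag
Nkx2-5, chr17:26841566-26841815, minus strand: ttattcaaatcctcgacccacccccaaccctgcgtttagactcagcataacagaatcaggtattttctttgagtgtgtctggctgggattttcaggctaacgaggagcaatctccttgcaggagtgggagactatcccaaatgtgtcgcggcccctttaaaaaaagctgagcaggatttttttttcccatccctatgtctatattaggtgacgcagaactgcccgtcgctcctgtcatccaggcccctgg

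GGCGCC occurred 1 time before Gata3, 1 time before the second start of Gata2 and 2 times before Isl1, and GATAA occurred 1 time, before Isl1. The first start of Gata2 had neither, nor had the windows of Gata5, Zfpm1 and Nkx2-5. TNAAGTG, an NK2 homeodomain site, was in none of these 7 windows, and the 3 motifs overlapped in none of them. Of all 32851 promoter windows of this length, 9.59% held GGCGCC, 22.6% held GATAA and 10.1% held TNAAGTG. The windows of Gata2, Gata3, Gata5, Zfpm1 and Isl1 were rich in G and C, at 67.2% to 74%, against 49.2% for Nkx2-5 and a median of 52.4% over all windows. Among the 4438 windows with at least 67.2% G or C, 34.7% held GGCGCC and 3.58% held GATAA. A match describes these letters and does not show a bound site.

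Of the 11 member probes, all read higher on average in the Bmp4 OE samples, against 14713 of all 29922 probes. At an adjusted p of 0.05 over all probes (limma, two-sided, Benjamini-Hochberg), 8 member probes were called higher, against 6.39% of all probes, and 0 were called lower, against 8.41%. At an unadjusted p of 0.05 these counts were 9, against 15.7% of all probes, and 0, against 17.2%. By the study's own criterion, at least 2-fold at an unadjusted p of 0.05, 7 member probes were higher, against 1.22% of all probes, and 0 were lower, against 1.41%. Both arrays of one group lay beyond both arrays of the other, with Bmp4 OE higher, for 9 member probes, against 29.2% of all probes, and with Bmp4 OE lower for 0, against 31% of all probes. Leaving out Bmp4 OE replicate 1, Bmp4 OE replicate 2, control replicate 1 or control replicate 2 left 1 degree of freedom. No probe of the whole array then passed the adjusted threshold in limma.

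**Figure D1:**
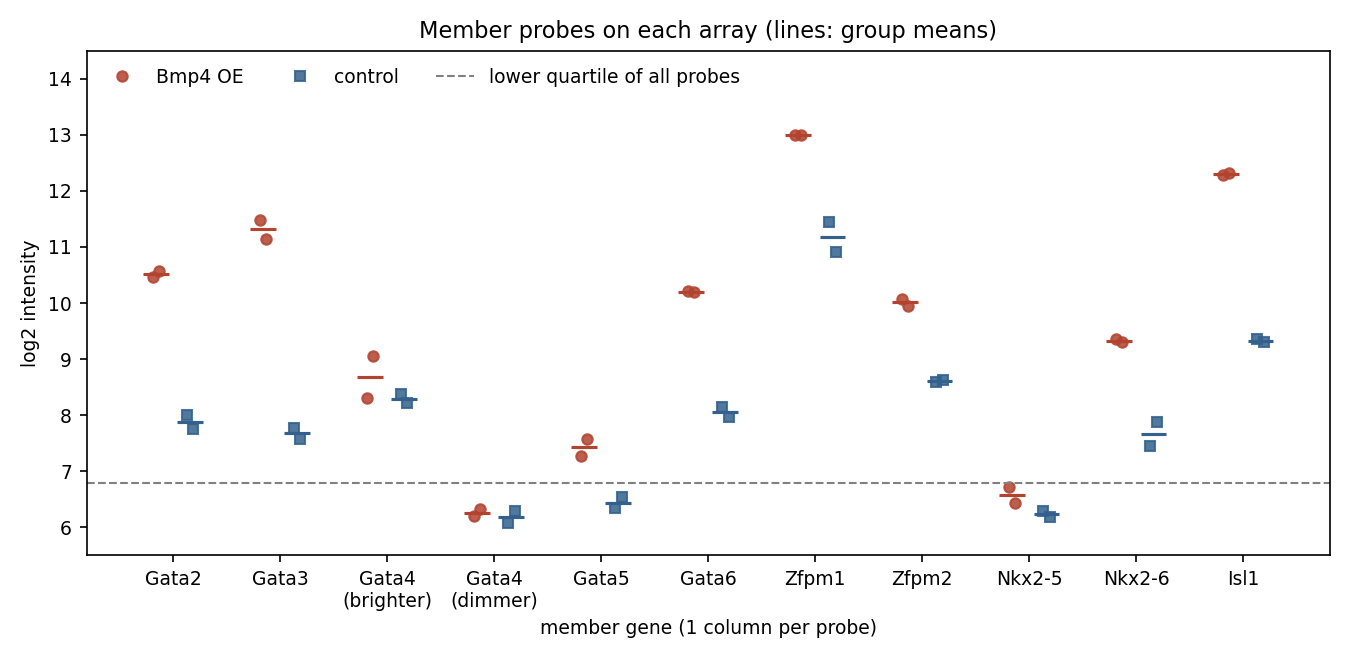
Log2 intensity (vertical axis) of each member probe on each array, with Bmp4 OE as red circles left of control as blue squares, group means as lines, and the lower quartile of all probes (6.79) dashed. The groups are separate for every probe except the 2 of Gata4, and both Nkx2-5 groups and the dimmer Gata4 probe lie below the dashed line.

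Gata3, the GATA gene of the distal arch, had the largest difference of the set. It read 11.49 and 11.14 in Bmp4 OE mandibles, against 7.78 and 7.57 in control mandibles (log2 intensity, 1 value per array). The difference was 3.64 ± 0.16 on the log2 scale (standard error of the limma fit, as for all ± values of differences here), a 12.5-fold higher signal and the 4th highest difference of all probes on the array. The lower Bmp4 OE value stood 3.36 above the higher control value. Gata2, a factor of blood progenitors that also acts in the nervous system and ear, followed the same pattern. It read 10.46 and 10.57 in Bmp4 OE mandibles, against 8 and 7.75 in control mandibles, a difference of 2.64 ± 0.13 on the log2 scale, or 6.23-fold. Gata2 ranked 11th among the differences of all probes.

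Gata6, a heart and endoderm factor, read 10.21 and 10.19 in Bmp4 OE mandibles, against 8.15 and 7.96 in control mandibles. Its difference was 2.15 ± 0.11 on the log2 scale, or 4.42-fold, and ranked 27th among all probes. Gata5, a factor of endocardium and gut, read 7.28 and 7.57 in Bmp4 OE mandibles, against 6.34 and 6.54 in control mandibles. Both control values lay under 6.79, the lower quartile of the array. The difference was 0.99 ± 0.14 on the log2 scale, or 1.98-fold, just short of the 2-fold criterion. With 50 added to the linear signals before the log2 was taken, it was 0.70.

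Gata4, the partner of Nkx2-5 in heart muscle, was the GATA member whose groups overlapped. Its brighter probe (mMC017950) read 8.30 and 9.05 in Bmp4 OE mandibles, against 8.38 and 8.21 in control mandibles, a difference of 0.38 ± 0.25 on the log2 scale. The gap of 0.75 between its 2 Bmp4 OE arrays was wider than that of 99.1% of all probes, whose median gap was 0.13. Without Bmp4 OE replicate 2 the difference was 0.005 on the log2 scale, and without Bmp4 OE replicate 1 it was 0.76. The dimmer probe (mMR030667) read 6.20 and 6.32 in Bmp4 OE mandibles, against 6.07 and 6.29 in control mandibles, below the lower quartile on all 4 arrays. The probes of the other 4 GATA members had gaps between 0.02 and 0.35 among the Bmp4 OE arrays and between 0.19 and 0.25 among the control arrays.

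Both FOG cofactor genes read higher in Bmp4 OE mandibles. Zfpm1, which encodes FOG1, the partner of Gata1 in red cell and platelet precursors, read 12.99 on both Bmp4 OE arrays, against 11.45 and 10.91 in control mandibles. Its difference was 1.81 ± 0.19 on the log2 scale, or 3.51-fold. The 2 control arrays lay 0.54 apart, more than for 96.8% of all probes, and the difference was 2.08 without control replicate 1 and 1.54 without control replicate 2. Zfpm2, which encodes FOG2, the partner of Gata4 in heart and gonad, read 10.08 and 9.95 in Bmp4 OE mandibles, against 8.59 and 8.62 in control mandibles. Its difference was 1.41 ± 0.11 on the log2 scale, or 2.66-fold.

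The homeobox partners held one of the widest differences of the set and one of the smallest. Isl1, a LIM-homeodomain factor of cardiac progenitors, motor and sensory neurons, and the arch epithelium, read 12.29 and 12.32 in Bmp4 OE mandibles, against 9.35 and 9.30 in control mandibles. This was a difference of 2.98 ± 0.10 on the log2 scale, or 7.89-fold, and the 7th highest of all probes. Arrays within a group lay 0.03 apart for Bmp4 OE and 0.05 apart for control. Nkx2-6, an NK2 factor of the pharyngeal arches, read 9.35 and 9.30 in Bmp4 OE mandibles, against 7.45 and 7.88 in control mandibles. Its difference was 1.66 ± 0.16 on the log2 scale, or 3.16-fold, with control arrays 0.43 apart, more than for 93% of all probes. Nkx2-5, the NK2 factor of heart muscle, read 6.72 and 6.44 in Bmp4 OE mandibles, against 6.29 and 6.19 in control mandibles. All 4 values were below the lower quartile, and the difference was 0.34 ± 0.13 on the log2 scale, with the groups 0.15 apart.

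**Figure D2:**
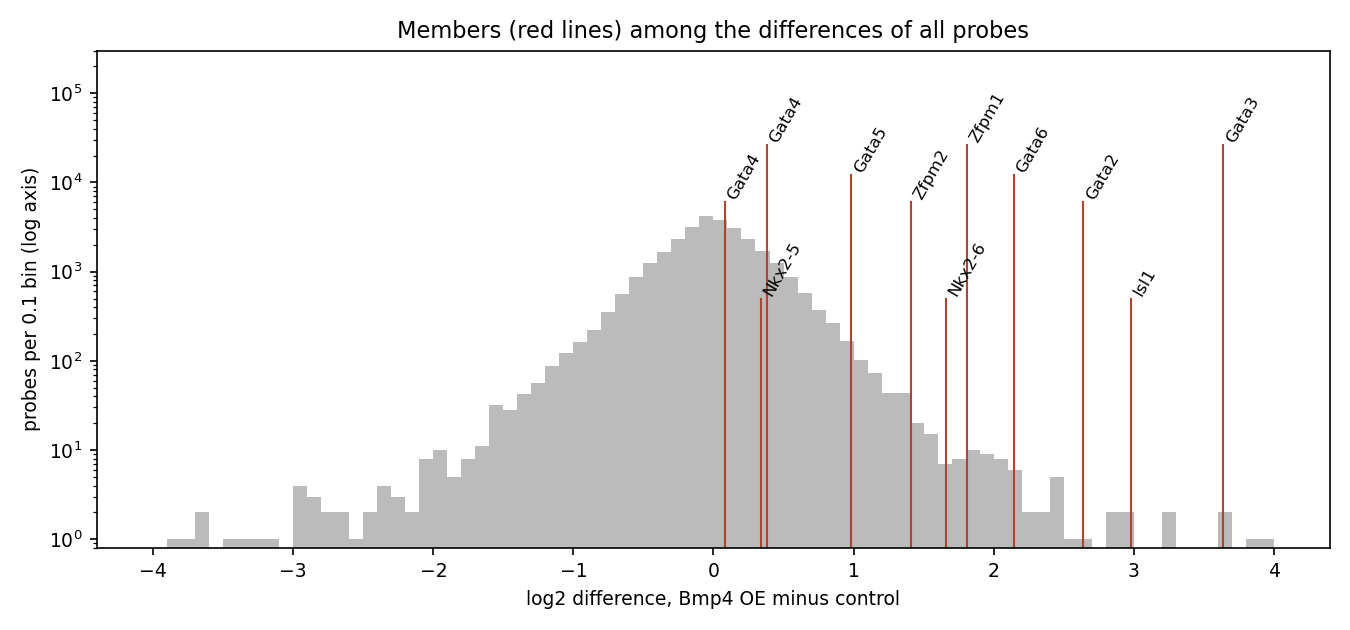
Histogram of the log2 difference, Bmp4 OE minus control, for all 29922 probes (vertical axis: probes per bin, log scale), with each of the 11 member probes as a red line whose height carries no value. Gata3 at 3.64, Isl1 at 2.98 and Gata2 at 2.64 lie in the far right tail, and the 2 Gata4 probes and Nkx2-5 lie within the bulk.

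In the order of their differences, through the brighter probe of Gata4, the members ran Gata3, Isl1, Gata2, Gata6, Zfpm1, Nkx2-6, Zfpm2, Gata5, Gata4 and Nkx2-5. Taking each Bmp4 OE array against each control array gives 4 differences per gene. Those of Gata3 ran between 3.36 and 3.92, those of Isl1 between 2.94 and 3.02, those of Gata2 between 2.46 and 2.82, and those of Gata6 between 2.04 and 2.25, so the first 4 were in separate ranges. Gata6 and Zfpm1, Zfpm1 and Nkx2-6, and Nkx2-6 and Zfpm2 overlapped and are not ordered beyond the spread of the arrays. Zfpm2, between 1.33 and 1.49, was apart from Gata5, between 0.74 and 1.23. Gata5 overlapped Gata4, which ran between -0.08 and 0.84, and Gata4 overlapped Nkx2-5, between 0.15 and 0.53. The median difference was 1.74 over the 10 members, through the brightest probe of each, and 0 over all named genes.

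Bmp4 itself read 15.27 and 15.31 in Bmp4 OE mandibles, against 11.96 and 12.07 in control mandibles, which checks the labels. Named genes were ranked by the root mean square difference of their log2 profile over the 4 arrays, each centred on its own mean, from that of a member. The 5 profiles most like that of Gata3 were those of Sct (0.16), Bmp4 (0.26), Rgs5 (0.37), Igfbp7 (0.45) and Unc5b (0.60). The 5 most like that of Isl1 were those of Rgs5 (0.10), Igfbp7 (0.11), Bmp4 (0.16), Unc5b (0.27) and Pdgfrl (0.28). With 4 arrays in 2 groups, such likeness says little more than that these genes had differences of a similar size, from 2.43 for Pdgfrl to 3.70 for Sct.

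For each member the nearest gene with a probe was taken on either side, a set added after the member values were seen, with gene order from GRCm38.p6. Of these 20 neighbours, 0 rose, 3 fell and 17 did not pass in limma, and 1 was higher and 3 were lower at an unadjusted p of 0.05. Among all named genes, through the brightest probe of each, 7.39% rose and 9.54% fell, and 17.6% were higher and 18.8% lower at an unadjusted p of 0.05. With 20 genes, a count of 0 is near that background. Celf2, an RNA-binding protein gene beside Gata3, read 12.50 and 12.44 in Bmp4 OE mandibles, against 12.17 and 12.37 in control mandibles. Taf3, on its other side, had a log2 difference of -0.17 (adjusted p = 0.311). Rpn1 and Dnajb8, beside Gata2, had log2 differences of 0.30 and -0.20. Neighbours that fell were Mib1, a ubiquitin ligase gene of Notch signalling beside Gata6, at -0.91 (limma, adjusted p = 0.0118), Slc25a37, a mitochondrial iron carrier gene beside Nkx2-6, at -0.61 (adjusted p = 0.0475), and Parp8, beside Isl1, at -0.56 (adjusted p = 0.0275). The neighbour with the lowest difference was Mib1 and the highest differences were 0.32 each, for Zfp469 beside Zfpm1 and Lrp12 beside Zfpm2.

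**Figure D3:**
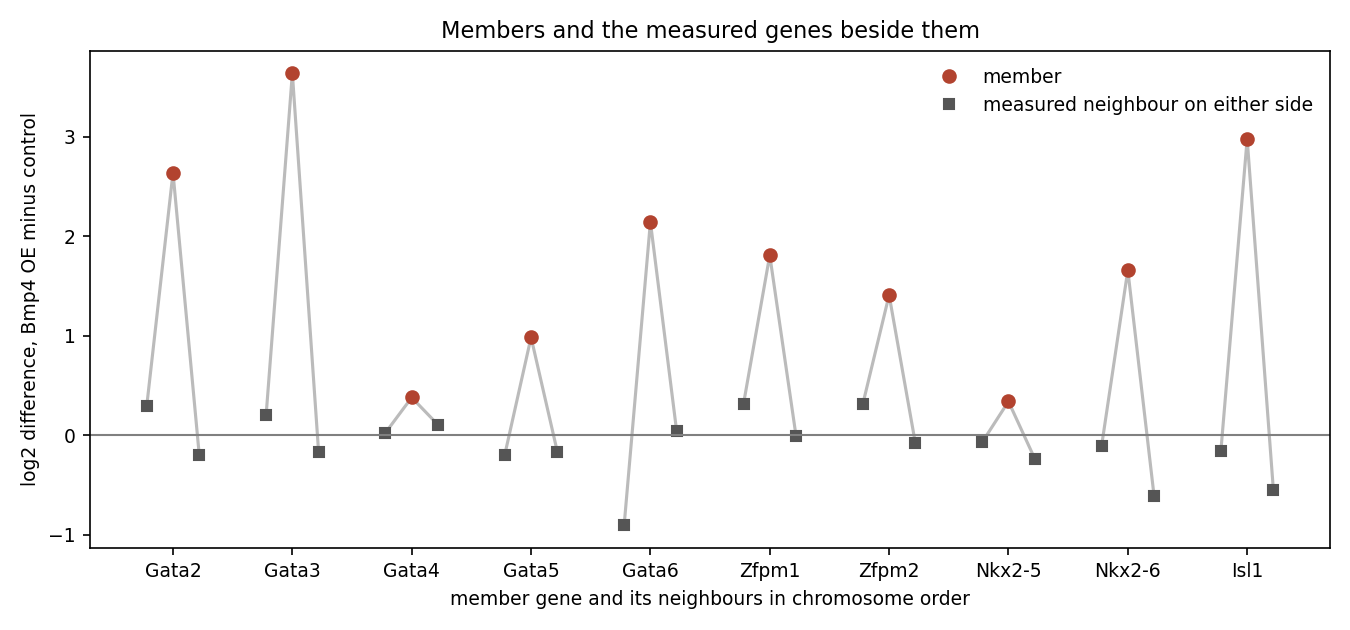
Log2 difference, Bmp4 OE minus control (vertical axis), for each member (red circle) and the nearest measured gene on either side (grey squares), in chromosome order within each trio and not to scale along the horizontal axis. The squares run between -0.91 and 0.32, while Gata3, Isl1, Gata2 and Gata6 exceed 2.

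Lists of partner and family genes outside the set were counted in the same limma fit over all probes, and each count stands against the shares of all named genes just given. Of 5 other GATA-type zinc finger genes measured, 0 rose, 1 fell and 4 did not pass, with 0 higher and 2 lower at an unadjusted p of 0.05 and a median log2 difference of -0.22. Gatad2a, a NuRD subunit gene, fell, with 9.25 and 9.51 in Bmp4 OE mandibles, against 10.37 and 10.52 in control mandibles (log2 difference -1.07, adjusted p = 0.0120). Trps1, an atypical GATA repressor of cartilage and hair, had a log2 difference of -0.22 (adjusted p = 0.259), and Gatad2b one of -0.08 (adjusted p = 0.727).

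A list of genes of the complexes that FOG proteins recruit had log2 differences between -0.60 and 0.30 at their brightest probes. This list leaves out Gatad2a, the NuRD subunit gene counted above, which fell at -1.07. Chd4, a NuRD helicase gene, had 0.30 at its brightest probe and did not pass, while a dimmer probe was lower (-0.56, adjusted p = 0.0489). Of 11 measured NuRD and CtBP genes, 0 rose, 1 fell and 10 did not pass, with 1 higher and 2 lower at an unadjusted p of 0.05 and a median log2 difference of -0.08. Ctbp2, a corepressor gene, fell, with 11.44 and 11.57 in Bmp4 OE mandibles, against 12.09 and 12.11 in control mandibles (log2 difference -0.60, adjusted p = 0.0257). Rbbp7, a histone-binding subunit, had a log2 difference of -0.03 near the top of the scale, and the deacetylase gene Hdac2 one of -0.33 (adjusted p = 0.0863).

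Genes of the cardiac transcription factor network moved in both directions. Of 20 measured, 8 rose, 5 fell and 7 did not pass, with a median log2 difference of 0.26. Tbx20, a T-box factor of the heart, read 8.33 and 8.09 in Bmp4 OE mandibles, against 6.10 and 6.15 in control mandibles, where it was below the lower quartile (log2 difference 2.09, adjusted p = 0.00267). Hand1, a helix-loop-helix factor of the distal arch and left ventricle, read 9.90 and 9.93 in Bmp4 OE mandibles, against 7.95 and 8 in control mandibles (log2 difference 1.94, adjusted p = 0.00201). Tbx3, a factor of the conduction system and distal arch, rose, with a log2 difference of 0.94 (adjusted p = 0.00949). The brighter probe of Tbx18, a factor of epicardium and sinus node, fell to 6.24 on both Bmp4 OE arrays, against 7.70 and 7.71 in control mandibles (adjusted p = 0.00347), while its dimmer probe had a log2 difference of -0.29 and did not pass. Foxc2, a forkhead factor of arch mesenchyme and vessels, fell, with a log2 difference of -0.86 (adjusted p = 0.0111). Tbx2 and Nkx2-3 had log2 differences of 0.16 and -0.42 and did not pass (adjusted p = 0.458 and 0.0553).

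LIM-homeodomain genes and cofactors, the family and partners of Isl1, also went both ways. Of 17 measured, 3 rose, 4 fell and 10 did not pass, with a median log2 difference of 0.11. Isl2, the closest relative of Isl1, read 7.57 and 7.17 in Bmp4 OE mandibles, against 6.37 and 6.19 in control mandibles, where it was below the lower quartile (log2 difference 1.09, adjusted p = 0.0175). Ldb1, the cofactor that binds LIM-homeodomain proteins and also joins GATA complexes in blood, rose, with 13.93 and 13.81 in Bmp4 OE mandibles, against 13.12 and 13.20 in control mandibles (log2 difference 0.71, adjusted p = 0.0179). Lhx8, of the oral mesenchyme, and Lhx9 fell, with log2 differences of -1.47 and -1.34 (adjusted p = 0.00347 and 0.00655), and the second probe of Lhx8 gave -1.16. Lmx1a fell, with a log2 difference of -0.82 (adjusted p = 0.0121). The cofactor genes Ssbp2 and Ssbp3 had log2 differences of 0.27 and -0.16 at their brightest probes and did not pass, while the second probe of Ssbp3 was lower (-0.55, adjusted p = 0.0409).

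Factors that act with GATA proteins in blood and vessels were counted next. Of 13 measured, 1 rose, 2 fell and 10 did not pass, with a median log2 difference of -0.06. Cbfa2t3, a corepressor gene, was higher at its brighter probe (log2 difference 0.86, adjusted p = 0.0131) and lower at its dimmer one (-0.44, adjusted p = 0.0465), so its direction is unsettled. Myb, a factor of blood progenitors, fell to 7.23 and 7.20 in Bmp4 OE mandibles, against 8.55 and 8.42 in control mandibles (adjusted p = 0.00522), and Klf1, of red cells, fell, with a log2 difference of -0.51 (adjusted p = 0.0345). Fli1 and Tal1 had log2 differences of 0.38 and -0.10 and did not pass (adjusted p = 0.0800 and 0.581).

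Relatives of Nkx2-5 and Nkx2-6 and the sympathoadrenal genes, a programme in which Gata2 and Gata3 take part, held no calls. Of 9 other NK2, NK3 and NK6 homeobox genes measured, 0 rose and 0 fell in limma, with 0 higher and 3 lower at an unadjusted p of 0.05, and their log2 differences ran between -0.47 and 0.22. Nkx6-1 had a log2 difference of -0.01. Of 8 sympathoadrenal genes measured, 0 rose and 0 fell in limma, with 1 higher and 2 lower at an unadjusted p of 0.05. The enzyme genes Ddc and Dbh of this list had log2 differences of 0.16 and 0.28 (adjusted p = 0.427 and 0.256).

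**Figure D4:**
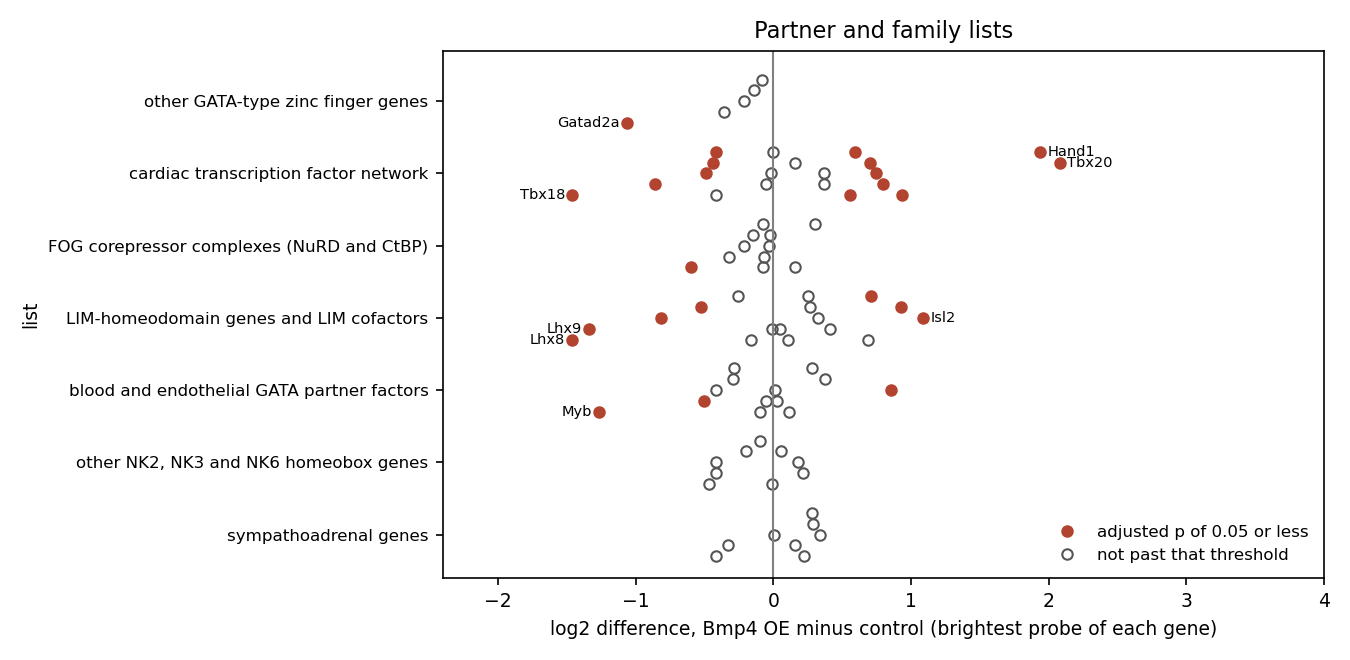
Log2 difference, Bmp4 OE minus control (horizontal axis), of each measured gene of the 7 partner and family lists, through its brightest probe, filled where the adjusted p was at most 0.05. Points are spread vertically within a list only to separate them, genes past 1 in either direction are named, and only the cardiac list reaches beyond 1.5, with Tbx20 and Hand1.

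Several members are also markers of cell types that a whole mandible holds, and in whole tissue more cells of a type and more RNA per cell cannot be told apart. Heart muscle is one tissue that expresses Gata4, Gata6, Zfpm2 and Nkx2-5. Of 20 measured heart muscle markers, 4 rose, 1 fell and 15 did not pass, and their summed linear signal was 14168 and 13727 in Bmp4 OE mandibles, against 10035 and 10406 in control mandibles. Those that rose were Myl4, Tnnc1, Actc1 and Ttn, at log2 differences between 0.46 and 0.94, and they are also genes of embryonic skeletal muscle, while Atp2a2 fell, at -0.77. The second probe of Actc1 gave -0.09, and 5 other probes of Ttn did not pass, while the dimmer probe of Ryr2, a calcium channel gene, was higher (0.87, adjusted p = 0.0178) and its brighter one did not pass (0.19). Myh6, a defining myosin gene of heart muscle, read 6.45 and 6.63 in Bmp4 OE mandibles, against 6.55 and 6.48 in control mandibles. It and Myl7, a myosin gene of the atrium, were among 4 markers of this list below the lower quartile on all arrays. Myl3, Tnni1 and Myl2, of the same list, had log2 differences of 0.39, 0.28 and 0.21 and did not pass, and the median of the list was 0.19. Actn2 and Slc8a1 had 0.21 and 0.01 and did not pass.

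Gata2 and Zfpm1 are also expressed in endothelium and blood. Of 11 endothelial markers, 1 rose, Ramp2, an adrenomedullin receptor subunit (log2 difference 1.52, adjusted p = 0.00340), and 0 fell, with 5 higher and 0 lower at an unadjusted p of 0.05. Their summed linear signal was 20913 and 20600 in Bmp4 OE mandibles, against 13392 and 13163 in control mandibles, and without Ramp2 it was 11823 and 11697 in Bmp4 OE mandibles, against 10178 and 10081 in control mandibles. Pecam1 and Egfl7 had log2 differences of 0.39 and 0.31 and did not pass, and the dimmer probe of Pecam1 gave -0.06. Of 8 erythroid markers, 0 rose and 1 fell, the haem enzyme gene Alas2 (log2 difference -0.59, adjusted p = 0.0260), with 0 higher and 2 lower at an unadjusted p of 0.05. Their sum was 203203 and 199444 in Bmp4 OE mandibles, against 213394 and 206477 in control mandibles, but Hbb-y and Hba-x read 15.91 or more on a scale that ends at 16, so differences in them could not be read.

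Isl1 also marks sensory neurons. Of 11 cranial ganglion neuron markers, 0 rose and 1 fell, the neurofilament gene Nefm (log2 difference -0.56, adjusted p = 0.0336), with 4 higher and 2 lower at an unadjusted p of 0.05. Their sum was 50291 and 51988 in Bmp4 OE mandibles, against 26689 and 37030 in control mandibles, and without Elavl3, whose 2 control arrays read 14.47 and 15.01, it was 5217 and 5000 in Bmp4 OE mandibles, against 3995 and 4034 in control mandibles. Nefm read 6.61 and 6.60 in Bmp4 OE mandibles, where it was below the lower quartile, against 7.25 and 7.07 in control mandibles. Elavl3 and Tubb3 had log2 differences of 0.75 and 0.19 and did not pass, and the dimmer probe of Elavl3 gave -0.04. Pou4f1, a defining factor of these neurons that acts with Isl1, had a log2 difference of -0.25, below the lower quartile on all 4 arrays. Prph, Neurog1, Elavl4 and Stmn2, of the same list, had log2 differences of 0.88, 0.50, 0.42 and 0.40 at their brightest probes and did not pass. The dimmer probe of Prph gave -0.27 and the dimmer probes of Elavl4 gave -0.38 and -0.40, so their direction is unsettled. The median of the list was 0.26.

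Gata3 and Isl1 are also expressed in arch epithelium, and Gata6 and Nkx2-6 in endoderm. Of 12 epithelial markers, 4 rose, 2 fell and 6 did not pass, and their sum was 39270 and 41042 in Bmp4 OE mandibles, against 44730 and 46564 in control mandibles. Krt8, Krt18, Cdh1 and Cldn6 rose, with log2 differences of 1.23, 1.20, 0.92 and 0.63, while Krt14 and Krt5 fell, at -0.79 and -0.46. At an unadjusted p of 0.05, 5 of the 12 were higher and 3 lower. Krt15 and Esrp1 had log2 differences of -0.10 and -0.06. Without Krt14 the sum was 23334 and 24197 in Bmp4 OE mandibles, against 17555 and 17031 in control mandibles. Of 7 endoderm markers, 3 rose, Foxa1 (0.95), Cldn4 (0.56) and Foxa2 (0.50), 1 fell, Foxe1 (-0.42), and 3 did not pass, among them Sox17 (-0.13) and Foxn1 (0.52). Foxa2 read 6.87 and 6.79 in Bmp4 OE mandibles, against 6.26 and 6.40 in control mandibles, where it was below the lower quartile. At an unadjusted p of 0.05, 4 of these 7 were higher and 1 lower. Their sum was 5512 and 5179 in Bmp4 OE mandibles, against 3770 and 3817 in control mandibles. Without Cldn4 it was 1846 and 1966 in Bmp4 OE mandibles, against 1385 and 1544 in control mandibles.

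Genes of the mesenchyme of the labelled tissue were counted last. Pdgfra, of the arch mesenchyme, read 13.91 and 13.85 in Bmp4 OE mandibles, against 13.86 and 13.85 in control mandibles. Of 12 mandibular mesenchyme markers, 2 rose (Prrx2 and Msx1), 3 fell (Twist1, Twist2 and Col1a1) and 7 did not pass, among them Col3a1, at a log2 difference of -0.11, and their sum was 130429 and 120173 in Bmp4 OE mandibles, against 126700 and 128811 in control mandibles. Without Msx1 it was 98778 and 88079 in Bmp4 OE mandibles, against 110983 and 112875 in control mandibles. The part of each of these cell types in the member differences was not tested.

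**Figure D5:**
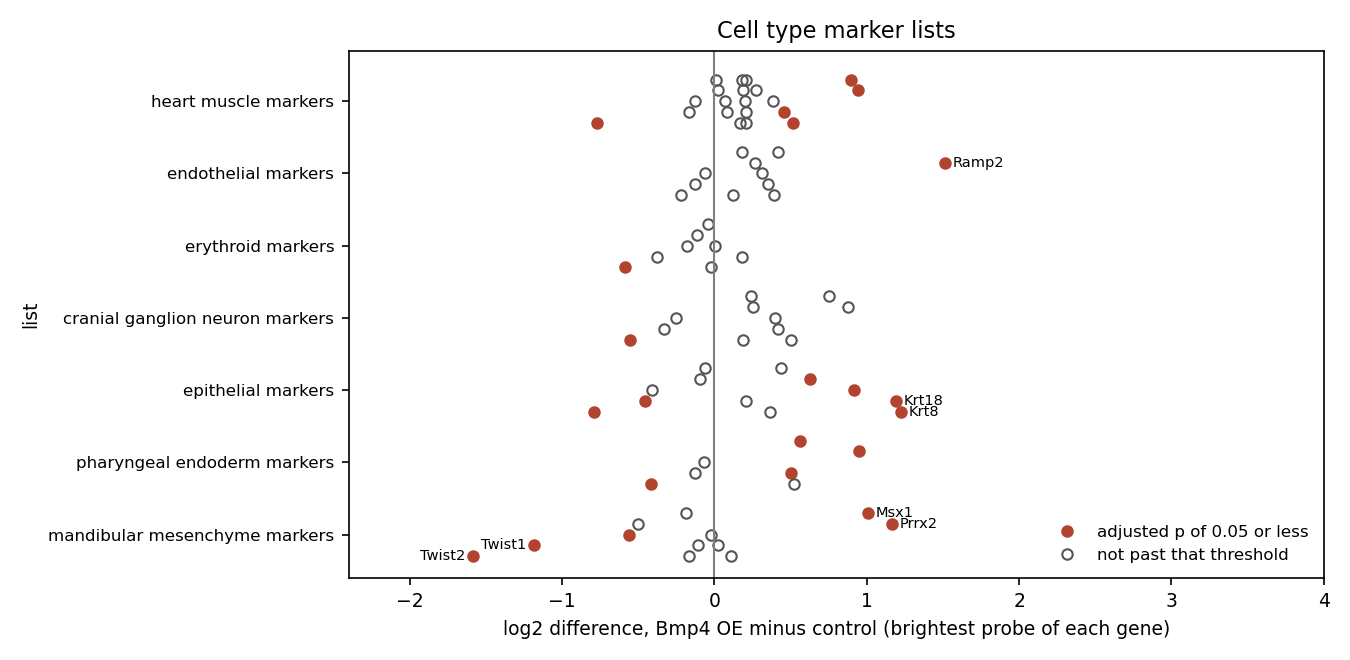
Log2 difference, Bmp4 OE minus control (horizontal axis), of each measured gene of the 7 cell type marker lists, through its brightest probe, filled where the adjusted p was at most 0.05. Points are spread vertically within a list only to separate them. Ramp2 at 1.52 is the highest marker and Twist2 at -1.59 the lowest.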

How the data were processed

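Per the labels' protocols, total RNA was amplified as aminoallyl RNA, coupled to Cy5 and hybridised as 1 sample per array. The deposited values are log2 intensities with 2 decimals, and their base was read from the maximum of 16. Once sorted, the 4 columns hold the same values, as quantile normalisation before deposit would leave them, so a shift common to most genes would be invisible. No scanner, background correction or software is named in the sources used here. The number of arrays limits the precision.

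Of 29922 probes, 21020 had 1 symbol in the platform annotation, 0 had several and 8902 had none. Old symbols were updated through the GRCm38.p6 RefSeq gene table (3410 probes). The probe with the highest mean over the 4 arrays stood for a gene in lists. Bmp4 OE was compared with control in limma 3.58.1 under R 4.3.3 (lmFit and eBayes, no filter, 3.59 prior and 2 residual degrees of freedom), and p-values were Benjamini-Hochberg adjusted across the array. The code was first tested on simulated data. With 2 arrays a group, the smallest two-sided exact permutation p is 0.333. RefSeq promoter sequences of 6 of the 10 members, matched by symbol, were searched on both strands. Windows on chromosome 18, where Gata6 lies, were left out of the search of the members.

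The members and the 14 gene lists were chosen with earlier results of these data known. From each list, the text names all called genes, or the 5 with the smallest p, and up to 2 uncalled genes with the highest mean. Chd4, Ryr2, Myh6, Myl7, Myl3, Tnni1, Myl2, Pou4f1, Prph, Neurog1, Elavl4, Stmn2 and Krt5 are named besides, after their values were seen. Alternatives were an offset, 2 filters on dim probes, an intensity trend, median centring, the mean over the probes of a gene, a replicate block, the study's threshold and leaving out each array.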

Additional observations from a re-analysis of the deposited data

How the results depend on the processing

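The limit is the number of arrays, 2 per group. Without Bmp4 OE replicate 1 or 2 or control replicate 1 or 2, nothing was called among all probes, the member probes or any list, higher or lower. In these fits 1 residual degree of freedom remained. The lowest adjusted p then ran between 0.138 and 0.191. With replicate number as a replicate block every count of calls was also 0, with a lowest adjusted p of 0.0745. In that fit 8724 probes were at an unadjusted p of 0.05 in either direction, 9 of the 11 member probes among them. Nothing in the labels says that a number marks a shared litter or batch, and the deviations of same-numbered arrays correlated at -0.07 across probes. At the study's threshold 364 probes were higher and 422 lower. The cardiac factor list then had 2 higher and 1 lower, the LIM list 1 and 2, the blood and endothelial list 0 and 1, and the NuRD and CtBP list 0 lower. With an intensity trend the cardiac list had 3 lower, the NuRD and CtBP list 2 lower and the blood and endothelial list 1 lower. The NK list had 1 lower without probes below the lower quartile, 1 without those below the median and 1 with 50 added to the linear values. The blood and endothelial list had 0 lower without probes below the median and 0 higher with the mean over probes, where the opposed probes of Cbfa2t3 were averaged. The filter at the median dropped Myb and Klf1, whose averages over the arrays lay under it. Ctbp2 (1.51-fold) and Klf1 (1.42-fold) fell short of the 2-fold part of the study's threshold. Apart from these and the mean over probes, the cause of the changes was not tested. Member differences kept their sign in all 107 settings run, but for most of these the outcome was fixed. The filters, trend, centring and block leave a member's difference as it is. Where the arrays of the groups do not overlap, an offset or a left-out array cannot turn its sign. Only Gata4 could therefore have changed sign. Member differences moved by at least the SD between arrays of a group, pooled over both groups, in 8 settings. These were the offset for Gata2 (2.41), Gata3 (3.35), Gata5 (0.70), Gata6 (1.96), Zfpm2 (1.30) and Isl1 (2.89), and either control array left out for Zfpm1, where the move equalled that SD. Leaving out 1 of 2 arrays can at most equal that SD, so the count says nothing about stability to a left-out array.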
